A study of Mus musculus with 6 samples.

Results

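The genes described here are the estrogen receptor genes Esr1 and Esr2 and 7 genes known to be induced by estrogen in the reproductive tract, namely Greb1, Sprr2f, Padi1, Padi2, Lif, Ccnd1 and Myc. They are 9 of the 55363 symbols measured in the whole oviduct and were all found in the deposited tables. They were chosen by name from knowledge of estrogen action, with earlier results of these data known. RNA came from pregnant female mice, mated at 6 to 8 weeks with fertile males and killed on gestational day 3, counting the day of the vaginal plug as day 1. There were 3 libraries from oviducts labelled Mettl3 f/f and 3 from oviducts labelled Mettl3 d/d. Mettl3 encodes the enzyme subunit that writes N6-methyladenosine on RNA, f/f usually denotes loxP sites on both copies and d/d the form left after Cre has cut. The Cre driver and the cells in which it acts, the deleted exons and the background strain were not stated in the labels, nor whether each library is 1 animal or a pool.

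Estrogen acts mainly through the nuclear receptors ER alpha, encoded by Esr1, and ER beta, encoded by Esr2. Bound to hormone, the receptor sits on DNA at a palindromic estrogen response element, or is tethered through other factors such as AP-1 and Sp1, and recruits coactivators. In the mouse uterus this induces secreted and surface proteins of the epithelium and drives its cells into division, while progesterone opposes several of these responses. The oviduct, which carries the early embryo towards the uterus, expresses ER alpha in epithelium, stroma and muscle.

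The question asked of these genes was whether any of them differed between the genotypes. Values are FPKM, fragment counts scaled by transcript length and library size, so levels can be set side by side between genes. The whole table was tested with limma on log2(FPKM + 1), with Benjamini-Hochberg adjustment over the 15438 features that had a mean of at least 1 FPKM and an adjusted p under 0.05 as the threshold. A log2 change is the difference of mean log2(FPKM + 1) with f/f subtracted from d/d, and understates the change of low genes, and a fold is a ratio of group mean FPKM. Of the 9 genes 8 were tested, 1 (Sprr2f) was higher in the libraries labelled d/d and 0 were lower. Over all features tested, 6.04% were called higher and 4.97% lower, and 1 of 8 is not set apart from that background. The split of calls depends on scaling, with 933 higher and 768 lower as deposited and 539 higher and 1124 lower when FPKM was rescaled without mitochondrial features. That rescaling divides each library by its summed FPKM of all other features, with factors of 0.9133, 0.9295 and 1.015 for f/f replicates 1 to 3. For d/d replicates 1 to 3 the factors were 1.141, 0.9534 and 1.067. The changed split follows from these summed totals and does not isolate the mitochondrial features. Those took between 3.61% and 5.70% of all FPKM under f/f and between 6.50% and 9.70% under d/d, without overlap. Their part in the results was not tested. An unadjusted p under 0.05 was found for 4 of the 8 genes (Sprr2f, Padi1, Padi2 and Greb1), and for 4562 of the 15438 features.

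Low values came in steps of 1 fragment, which implied between 16700864 and 17847234 fragments per library. Mettl3 itself had FPKM values of 11.8, 12.1 and 13.2 for f/f replicates 1 to 3 and of 19.8, 20.3 and 24.5 for d/d replicates 1 to 3, higher in every library labelled d/d and 1.74-fold in the mean. Its limma adjusted p was 0.0145, or 0.0722 without f/f replicate 2. A value per gene cannot show a missing exon, so the genotype labels were not verified by it and every direction given here rests on them. Markers of the labelled tissue were present, with the oviductal glycoprotein gene Ovgp1 between 2651 and 5690 FPKM. In f/f replicate 1 the markers of multiciliated cells summed to 366 FPKM against 218 and 183 in f/f replicates 2 and 3. In d/d they summed to 60.9, 265.5 and 159, so that d/d replicate 1 was the lowest of the 6 libraries. In f/f replicate 1 the smooth muscle markers summed to 1338 FPKM, against 3313 and 3331 in f/f replicates 2 and 3. Hoxa10, a homeobox gene active towards the uterus, was at 3.48 FPKM in f/f replicate 1 against 26.6 and 25.1 in those. Markers of ovary and corpus luteum summed to 3.23, 3.19 and 22.7 FPKM in f/f replicates 1 to 3, so that f/f replicate 3 stood apart. In d/d they summed to 1.84, 2.43 and 2.165, and their part in the results was not tested. In bulk tissue, fewer cells of a type and less RNA per cell cannot be told apart.

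Sprr2f encodes a small proline-rich protein of the kind cross-linked into cornified envelopes, and its transcript is a classical estrogen-induced message of the mouse uterine epithelium. The gene (ENSMUSG00000050635) lies on chromosome 3, 92365187 to 92366442 on the plus strand of GRCm38, in the family cluster. Its promoter is shown because Sprr2f was the only listed gene called, and that of Greb1 because Greb1 was the only listed gene lower in every d/d library. Both are RefSeq windows on GRCm38.p6, from 250 bases before to 50 bases after the start site and in the sense direction. They lie at chr3:92364937-92365236 (plus strand) and chr12:16800837-16801136 (minus strand). Capitals mark GGTCA or its reverse complement TGACC, an arm of the estrogen response element, TGACTCA or its reverse complement TGAGTCA, the AP-1 site, and TATAAA, the TATA box.
Sprr2f: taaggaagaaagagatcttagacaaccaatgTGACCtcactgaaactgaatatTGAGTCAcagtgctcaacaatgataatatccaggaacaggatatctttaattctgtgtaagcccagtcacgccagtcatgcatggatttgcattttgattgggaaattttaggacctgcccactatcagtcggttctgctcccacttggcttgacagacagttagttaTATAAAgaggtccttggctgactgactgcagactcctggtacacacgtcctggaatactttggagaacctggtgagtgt
Greb1: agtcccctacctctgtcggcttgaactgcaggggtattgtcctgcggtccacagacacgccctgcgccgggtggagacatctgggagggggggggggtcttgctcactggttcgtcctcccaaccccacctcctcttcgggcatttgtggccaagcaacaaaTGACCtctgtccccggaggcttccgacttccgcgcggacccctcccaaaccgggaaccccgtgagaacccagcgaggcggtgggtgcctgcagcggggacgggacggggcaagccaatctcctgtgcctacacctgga

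In the Sprr2f window the arm begins at -219 relative to the start site, the AP-1 site at -197 and the TATA box at -29. The Greb1 window has an arm beginning at -88, and a window at a further RefSeq start of Greb1 holds 2 more. Windows were found for 7 of the 9 genes (9 windows, with 2 each for Esr1 and Greb1) and for neither Ccnd1 nor Myc. An arm on either strand was present in 5 of the 9 windows, those of Sprr2f, Esr2, the first of Esr1 and both of Greb1, against 40.5% of the 32851 RefSeq windows of this length. The full palindrome GGTCANNNTGACC was in 0 of the 9 and in 0.07% of all windows. An AP-1 site was in the windows of Sprr2f and Lif and in 5.2% of all, and a TATA box on the sense strand in that of Sprr2f and in 8.32% of all. Sp1 boxes (GGGCGG on either strand, in 35.7% of all windows) were found in the Padi2 window, at 3 positions. These are matches of letters in a short window, and estrogen response elements often lie far from a start site.

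Sprr2f had FPKM values of 0.167, 0.987 and 0.857 for f/f replicates 1 to 3 and of 6.52, 10.4 and 19.1 for d/d replicates 1 to 3. Every library labelled d/d was above every f/f library, as for 18.1% of all features tested. The lowest d/d value was several times the highest f/f value. This gene has a single annotated transcript, so its values could be read back as fragments, at about 1.02, 6.06 and 5.06 for f/f and 38.9, 59.7 and 111 for d/d. The level in f/f therefore rests on very few fragments. The means were 0.670 ± 0.441 and 12.02 ± 6.46 FPKM (SD, n = 3 each), a 17.9-fold difference. Its log2 change was 2.88 (SE 0.39, 95% interval from 1.95 to 3.81, limma adjusted p = 0.0105). It ranked 21 by size among the 933 features called higher. With f/f replicate 2 left out the call was lost (log2 change 3.03, limma adjusted p = 0.0509), where only 169 of all features passed, and the gene passed the filter on low values through its d/d libraries.

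The markers that bear on where Sprr2f could come from were measured beside it. For the uterus list, 0 of 4 tested members were called, and their summed level was 11.9 to 31.8 FPKM for f/f and 8.84 to 30.4 in d/d, with Prss28 at 0 in all libraries. Hoxa10 made up most of that sum in f/f replicates 2 and 3, at 26.6 and 25.1 FPKM, but not in f/f replicate 1 or d/d replicate 2. In those it was at 3.48 and 9.47 FPKM, and Foxa2 of the same list was at 7.17 and 9.57. Foxa2 overlapped between the groups. The gland protease gene Prss29 was higher in every d/d library, as for 18.1% of all features tested. It was at 0.308, 1.29 and 0.957 for f/f and 3.81, 1.96 and 1.88 for d/d (limma adjusted p = 0.107). Cxcl15 overlapped, with 0.783, 0.211 and a listed 0 for f/f and 0.155, 8.68 and 1.59 for d/d (limma adjusted p = 0.307). Both Prss29 and Cxcl15 passed the filter on low values through d/d. Of the stratified squamous epithelium, Krt5, Krt14, Krt1 and Trp63 were below 1 FPKM in every library. The fifth member and the only one tested, the keratin gene Krt10, was at 2.76, 3.44 and 3.75 for f/f and 7.63, 3.54 and 8.50 for d/d, with d/d replicate 2 overlapping f/f (log2 change 0.74, limma adjusted p = 0.152). The list for oviduct secretory epithelium summed to between 4723 and 6220 FPKM for f/f and between 3082 and 5522 for d/d. Of its 5 members the adhesion molecule gene Epcam was called higher and the keratin gene Krt18 lower. Ovgp1, Pax8 and Krt8 were not called. Beside these marker lists, 6.04% of all features tested were called higher and 4.97% lower. The part of cell composition in the Sprr2f result was not tested.

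**Figure D1:**
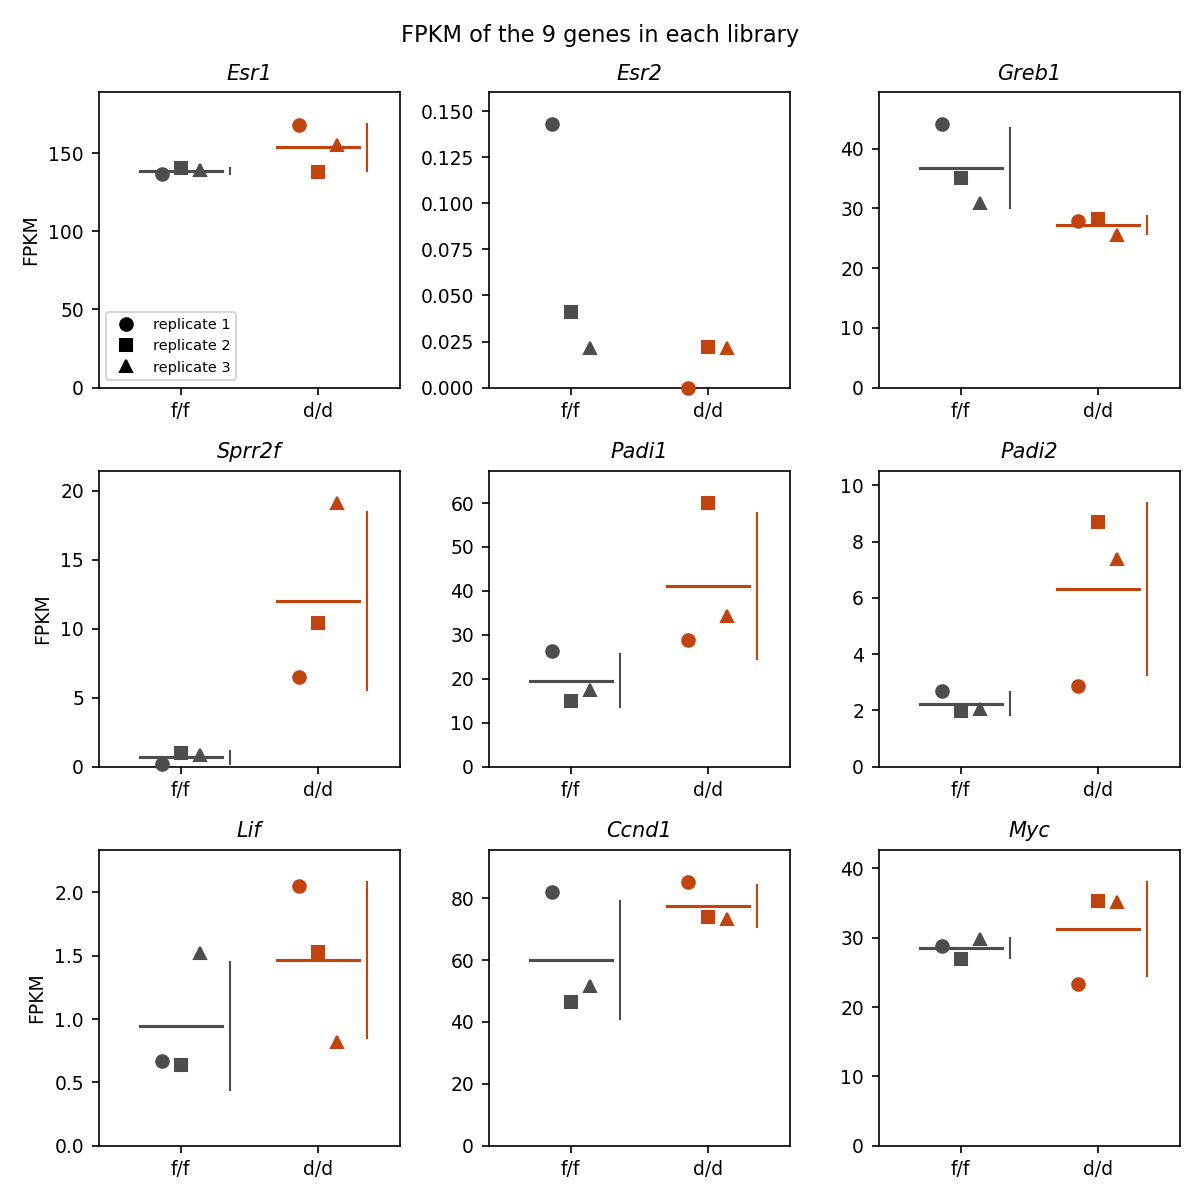
FPKM of the 9 genes in each library (y axis, linear, a separate scale for each gene) for f/f and d/d (x axis). Symbols are replicates 1 to 3, the horizontal line is the group mean and the vertical line beside it 1 SD; neither is drawn for Esr2, which is listed at 0 in a library. Sprr2f sits below 1 FPKM in all 3 f/f libraries and above 6 in all 3 d/d libraries, while Esr1 overlaps between the groups.

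The other members of the Sprr2f family were low or listed at 0. The family list held 15 other small proline-rich genes, of which 2 were tested, 2 were higher and 0 were lower, and 13 were under the filter. Both tested genes passed the filter through d/d only, so that count is no support. Sprr2a3 was listed at 0 in all 3 f/f libraries and was at 1.83, 3.43 and 4.55 FPKM in d/d replicates 1 to 3 (log2 change 2.04, limma adjusted p = 0.0121). Sprr2g was at 0 (listed), 1.02 and 0.152 in f/f and at 2.75, 4.02 and 1.84 in d/d (log2 change 1.51, limma adjusted p = 0.0432). For both, all d/d values were above all f/f values, as for 18.1% of all features tested. Leaving out f/f replicate 2 removed both calls, and leaving out any other single library kept 1. Among genes under the filter, picked after their values were seen, Sprr2b was at 0.109, 0.217 and 0.113 for f/f and 1.80, 1.61 and 0.114 for d/d. Sprr1a was at 0.208 in f/f replicate 2 and listed at 0 in the other f/f libraries, and was at 0.324, 1.43 and 0.985 in d/d. Sprr2b overlapped between the groups in d/d replicate 3, where it came to 1 fragment, and Sprr1a did not overlap. Sprr1b, Sprr2a1, Sprr2a2, Sprr2d, Sprr2i, Sprr2j-ps, Sprr2k and Sprr4 were listed at 0 in all 6 libraries. The family members are similar in sequence, so reads may have been split among them.

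**Figure D2:**
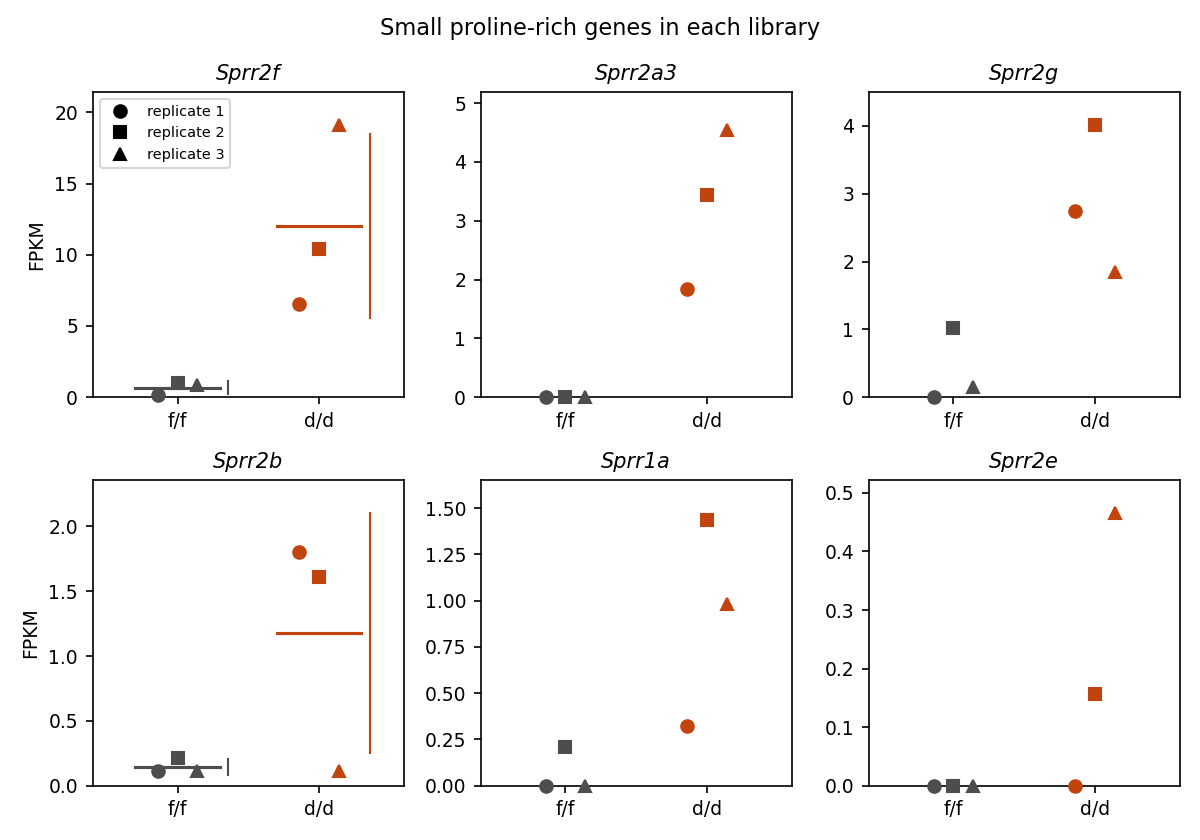
FPKM of Sprr2f and 5 other small proline-rich genes in each library (y axis, linear, a separate scale for each gene) for f/f and d/d (x axis), with symbols for replicates 1 to 3. Means and SDs (lines) are drawn only for Sprr2f and Sprr2b, which have no value listed at 0. Sprr2f, Sprr2a3, Sprr2g and Sprr1a are higher in all 3 d/d libraries, and d/d replicate 3 overlaps f/f for Sprr2b.

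The receptor genes themselves were not called. Esr1 (ENSMUSG00000019768; chromosome 10, 4611593 to 5005614, plus strand of GRCm38) had FPKM values of 136, 140.1 and 139 for f/f replicates 1 to 3 and of 168, 138 and 155 for d/d replicates 1 to 3. The f/f values lay close together, and d/d replicate 2 fell among them while d/d replicates 1 and 3 lay above. The fold was 1.11, and the log2 change of 0.14 had a 95% interval from -0.11 to 0.40 (limma adjusted p = 0.408). With FPKM rescaled to the total without mitochondrial features the log2 change was 0.00 (limma adjusted p = 0.993), a scaling that moves the median of all features from -0.01 to -0.14. Relative to that median, Esr1 was at 0.15 as deposited and at 0.14 rescaled. The interval holds a rise of up to 0.40 on the log2 scale and a small fall.

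Esr2 (ENSMUSG00000021055; chromosome 12, 76120419 to 76177259, minus strand) was near the limit of these libraries. It had FPKM values of 0.143, 0.0410 and 0.0213 for f/f replicates 1 to 3, was listed at 0 in d/d replicate 1, and was at 0.0219 and 0.0216 in d/d replicates 2 and 3. The groups overlapped, and f/f replicate 1 was the highest. Read back over its shortest annotated transcript, these came to 6.99, 2 and 0.999 fragments in f/f and to 0, 1 and 1 in d/d. It was under the filter, and without a filter the log2 change was -0.07 (limma adjusted p = 0.498). A difference between genotypes was not detectable at this depth. On the FPKM scale Esr1 was 953 times Esr2 in f/f replicate 1 and between 3420 and 7197 times in the other 4 libraries where Esr2 was above 0, ratios that rest on these few fragments.

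Greb1 encodes a cofactor of the estrogen receptor and is among the most direct targets of that receptor in several tissues. The gene (ENSMUSG00000036523; chromosome 12, 16670615 to 16800886, minus strand) had FPKM values of 44.2, 35.1 and 31.0 for f/f replicates 1 to 3 and of 27.97, 28.2 and 25.5 for d/d replicates 1 to 3. All d/d values were below all f/f values, as for 17.4% of all features tested, and f/f replicate 1 stood above the rest. The means were 36.8 ± 6.76 and 27.2 ± 1.48 FPKM (SD, n = 3 each), 1.35-fold lower in d/d. The log2 change was -0.41 (SE 0.14, 95% interval from -0.75 to -0.07) and missed the threshold (limma adjusted p = 0.118; unadjusted p = 0.0261). It passed with the level of Hoxa10 as a covariate (log2 change -0.51, limma adjusted p = 0.0461), and was -0.27 without f/f replicate 1, the library whose multiciliated markers were highest. Among the listed genes, Greb1 had a negative log2 change, and the other 7 tested had positive ones.

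Padi1 and Padi2 encode peptidylarginine deiminases, enzymes that convert arginine in proteins to citrulline, and both are estrogen-regulated in the uterus. They are neighbours on chromosome 4, Padi1 (ENSMUSG00000025329) at 140812983 to 140845778 on the minus strand and Padi2 (ENSMUSG00000028927) at 140906344 to 140952586 on the plus strand, with 60565 bases between them. Padi1 had FPKM values of 26.4, 15.0 and 17.4 for f/f replicates 1 to 3 and of 28.9, 60.1 and 34.3 for d/d replicates 1 to 3. Padi2 was at 2.70, 1.96 and 2.04 for f/f and 2.86, 8.71 and 7.38 for d/d. For both genes the 3 d/d values were above the 3 f/f values, as for 18.1% of all features tested. In both genes, too, replicate 1 was the highest f/f and the lowest d/d library, and those values nearly met.

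Padi1 was 2.10-fold higher in d/d, with means of 19.6 ± 6.04 FPKM for f/f and 41.1 ± 16.7 for d/d (SD, n = 3 each). Its log2 change was 1.00 (limma 95% interval 0.26 to 1.74, adjusted p = 0.0867). Padi2 was 2.83-fold higher, with means of 2.24 ± 0.407 FPKM for f/f and 6.32 ± 3.07 for d/d (SD, n = 3 each). The log2 change was 1.08 (limma 95% interval 0.24 to 1.92, adjusted p = 0.0977). Neither passed the threshold on all libraries. Padi2 passed without d/d replicate 1 (log2 change 1.49, limma adjusted p = 0.0231), and Padi1 came to limma adjusted p = 0.0623 without f/f replicate 1. Of the other deiminases, Padi4, known from granulocytes, had FPKM values of 0.956, 0.109 and 0.142 under f/f and of 0.704, 5.11 and 2.30 under d/d. Those groups overlapped (log2 change 1.27, limma adjusted p = 0.148), and Padi4 passed the filter through d/d. Padi3 was below 0.3 FPKM in every library, and Padi6, the deiminase of oocytes, was listed at 0 in all 6.

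Padi2 and Padi4 are also expressed by leukocytes, whose markers moved with genotype. Of 5 leukocyte markers, 4 were called higher and 0 lower, against 6.04% and 4.97% of all features tested, and their summed level was 224 to 265 FPKM for f/f and 610.5 to 830 in d/d. The pan-leukocyte gene Ptprc, not called, had FPKM values of 13.1, 11.1 and 6.96 under f/f and of 17.0, 24.2 and 13.9 under d/d (limma adjusted p = 0.117). Its groups did not overlap, and 18.1% of all features tested were likewise higher in every d/d library. The multiciliated markers, given above, were likewise highest in replicate 1 among f/f libraries, and in d/d were lowest in replicate 1 and highest in replicate 2, as Padi1 and Padi2 were. The part of either cell type in the deiminase values was not tested.

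Lif encodes leukemia inhibitory factor, the cytokine that uterine glands make under estrogen before implantation. It (ENSMUSG00000034394; chromosome 11, 4257557 to 4272514, plus strand) had FPKM values of 0.669, 0.634 and 1.52 for f/f replicates 1 to 3 and of 2.05, 1.53 and 0.819 for d/d replicates 1 to 3. The groups overlapped, since f/f replicate 3 was as high as d/d replicate 2 and d/d replicate 3 was close to the low f/f libraries. The means were 0.943 ± 0.504 and 1.47 ± 0.619 FPKM (SD, n = 3 each). Its log2 change was 0.34 (limma 95% interval -0.38 to 1.06, adjusted p = 0.488). That interval spans a fall as well as a rise, so a difference of either sign was not detectable for Lif at this number of libraries.

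The receptor and signalling genes of Lif did not share a direction. Of 12 genes listed, 9 were tested, 2 were higher and 2 lower, with a median log2 change of -0.12 beside -0.01 over all features tested. Among those features 6.04% were called higher and 4.97% lower. Il6st, the signal-transducing chain gp130 of the Lif receptor, had FPKM values of 103, 86.5 and 91.8 under f/f and of 175, 162 and 121 under d/d (log2 change 0.68, limma adjusted p = 0.0415). Every d/d library was above every f/f library, as for 18.1% of all features tested. A pair of cytokines that act through gp130 moved in opposite directions. Cntf, ciliary neurotrophic factor, rose, with means of 1.46 ± 0.561 FPKM for f/f and 5.24 ± 0.507 for d/d (SD for n = 3 each, limma adjusted p = 0.0137), and Ctf1, cardiotrophin, fell, with means of 21.9 ± 1.66 and 11.04 ± 0.664 (SD, n = 3 each; limma adjusted p = 0.00839). Msx1, a homeobox gene that falls in the uterus around implantation, had FPKM values of 13.4, 27.6 and 24.0 under f/f and of 9.32, 7.01 and 9.38 under d/d (log2 change -1.19, limma adjusted p = 0.0377). Lifr, Jak1, Jak2, Stat3 and Socs3 were not called. Leaving out f/f replicate 2 gave 0 of these 4 calls, f/f replicate 3 gave 1, f/f replicate 1 gave 3 and each d/d library gave 2.

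Ccnd1 encodes cyclin D1, which with Cdk4 or Cdk6 starts the passage through G1. The gene (ENSMUSG00000070348; chromosome 7, 144929931 to 144939925, minus strand) had FPKM values of 82.0, 46.4 and 51.7 for f/f replicates 1 to 3 and of 85.4, 74.0 and 73.2 for d/d replicates 1 to 3. The groups overlapped through f/f replicate 1 alone. The means were 60.1 ± 19.2 and 77.5 ± 6.82 FPKM (SD, n = 3 each). The log2 change was 0.40 (limma 95% interval -0.10 to 0.91, adjusted p = 0.259). Without f/f replicate 1 the log2 change was 0.65 (limma adjusted p = 0.0252), so that library decides whether Ccnd1 passes.

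Of 14 partners, paralogs and inhibitors of cyclin D, 12 were tested, 0 were higher and 2 lower, with a median log2 change of 0.19. The shares over all features tested were 6.04% called higher and 4.97% lower. The paralog Ccnd3 fell 1.67-fold, with means of 94.1 ± 8.02 FPKM for f/f and 56.3 ± 3.14 for d/d (SD, n = 3 each; log2 change -0.73, limma adjusted p = 0.0118). Cdkn1b, the inhibitor p27, fell 1.57-fold, with means of 41.8 ± 4.37 FPKM for f/f and 26.6 ± 2.34 for d/d (SD for n = 3 each, limma adjusted p = 0.0226). In both, every d/d library was below every f/f library, as for 17.4% of all features tested. Leaving out f/f replicate 2 gave 0 lower, f/f replicate 1 gave 2, and each other library gave 1. The number higher was 1 when f/f replicate 1, or both first replicates, were left out, and 0 for each other library. Ccnd2, the third paralog, was between 32.6 and 52.5 FPKM for f/f and between 44.9 and 46.5 in d/d (limma adjusted p = 0.836).

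Myc encodes a transcription factor of growth and division and is an early estrogen-induced gene. It (ENSMUSG00000022346; chromosome 15, 61985391 to 61990374, plus strand) had FPKM values of 28.8, 26.9 and 29.8 for f/f replicates 1 to 3 and of 23.4, 35.3 and 35.1 for d/d replicates 1 to 3. The f/f values lay between d/d replicate 1 and the other d/d libraries. Its log2 change was 0.11 (95% interval from -0.30 to 0.51, limma adjusted p = 0.715), and its sign turned with FPKM rescaled without mitochondrial features (-0.03), though not relative to the median of all features there (0.11).

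Among 10 relatives and partners of Myc, all tested, 2 were higher and 0 lower, with a median log2 change of -0.11. For comparison, 6.04% of all features tested were called higher and 4.97% lower. Mycn, the paralog named from neuroblastoma, had FPKM values of 1.05, 1.40 and 0.826 under f/f and of 2.62, 3.83 and 3.16 under d/d (log2 change 1.01, limma adjusted p = 0.0308). Mxd3, of the Max-binding family that competes with Myc, was at 0.601, 0.666 and 0.605 for f/f and 2.97, 2.10 and 2.27 for d/d (log2 change 1.08, limma adjusted p = 0.0233) and passed the filter through d/d. Neither gene overlapped between the groups, and 18.1% of all features tested were likewise higher in every d/d library. Leaving out f/f replicate 1 gave 2 calls here, and leaving out any other library gave 0. Of 10 growth genes known to be induced by Myc, 1 was higher and 0 lower. It was Ncl, the nucleolar protein nucleolin, with FPKM values of 67.0, 63.3 and 78.9 under f/f and of 106, 115 and 115 under d/d (log2 change 0.68, limma adjusted p = 0.0158). That call was lost on leaving out f/f replicate 2, and likewise the second or the third d/d library.

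**Figure D3:**
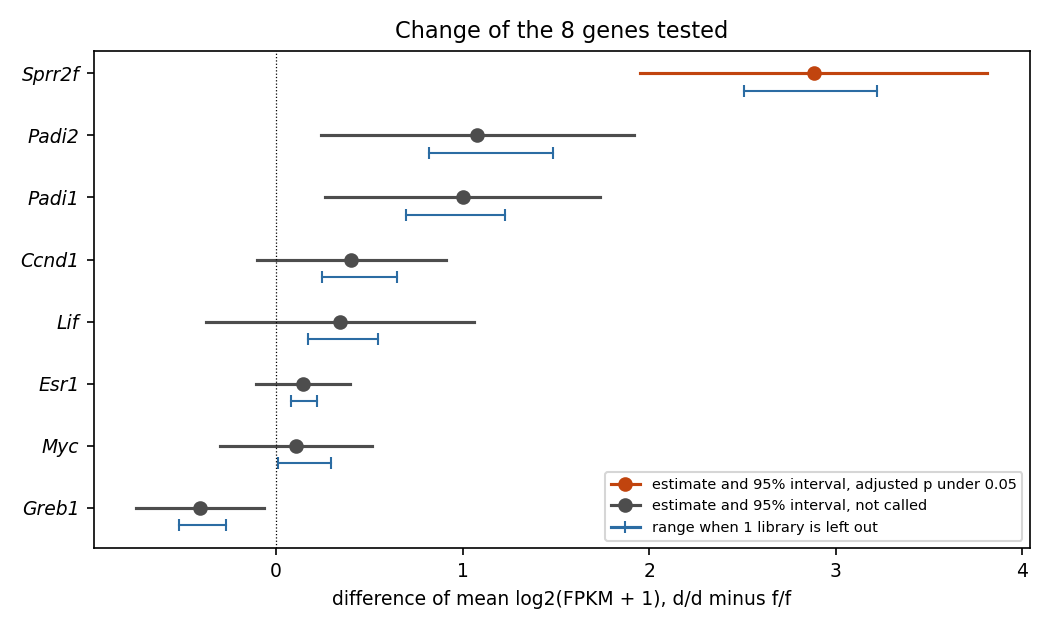
Log2 change, the d/d mean of log2(FPKM + 1) less the f/f mean (x axis), for the 8 genes tested (y axis), with dots for estimates and bars for 95% intervals; the thin bars below give the range when 1 library is left out. Sprr2f stands at 2.88 and is the only gene called, Padi1 and Padi2 lie near 1, and the intervals of Ccnd1, Lif, Esr1 and Myc include 0.

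Other estrogen-induced genes of the tract, listed with earlier results of these data known, were mixed. Of 28 listed, 26 were tested, 6 were higher and 1 lower. The median log2 change was 0.40 beside -0.01 over all features, of which 6.04% were called higher and 4.97% lower. Aqp8, Egf and Gjb2 passed the filter on low values through d/d, with f/f means of 0.425, 0.400 and 0.246 FPKM. The number higher and the median are therefore partly set by the filter. The leukocyte markers, of cells some of which are known to express Ltf and C3, summed to 224 to 265 FPKM for f/f and 610.5 to 830 for d/d, and their part in this list was not tested. Gjb2, the gap junction protein connexin 26, had FPKM values of 0.445, 0.157 and 0.136 for f/f replicates 1 to 3 and of 2.51, 9.17 and 4.52 for d/d replicates 1 to 3 (log2 change 2.23, limma adjusted p = 0.0190). It passed the filter through d/d, and its groups did not overlap. Ltf, the secreted iron-binding protein lactotransferrin, was at 264, 555 and 641 for f/f and 1436, 2192 and 2408 for d/d (log2 change 2.11, limma adjusted p = 0.0190). The complement gene C3 was at 253, 130.0 and 164 for f/f and 1104, 652 and 574 for d/d (log2 change 2.08, limma adjusted p = 0.0139). Muc1, a mucin of the apical surface, was at 26.0, 10.7 and 14.8 for f/f and 49.7, 56.1 and 45.4 for d/d (log2 change 1.59, limma adjusted p = 0.0214). In these 4 genes, picked because they were called, every d/d library was above every f/f library, as for 18.1% of all features tested.

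The remaining 3 calls in that list, outside the naming rule and given to complete the count, were the replication helicase genes Mcm3 (log2 change 1.24) and Mcm2 (0.78), higher, and Igfbp5 (-1.03), an insulin-like growth factor binding protein, lower. Pgr, the progesterone receptor gene and a direct estrogen target in the uterus, had a log2 change of -0.03 with a 95% interval from -0.37 to 0.31. The immediate early gene Jun was lower in every d/d library, as for 17.4% of all features tested. It had FPKM values of 84.2, 103 and 146 under f/f and of 77.4, 55.9 and 64.4 under d/d. Jun missed the threshold (limma adjusted p = 0.0832). Fos overlapped, with f/f replicate 3 at 27.0 FPKM and the other 5 libraries between 4.51 and 7.45. Ctsd, the cathepsin D gene, had the most negative log2 change of the list (-1.41, limma adjusted p = 0.171) and was not called. It was at 348.5, 1675 and 1692 FPKM for f/f and 427, 340.5 and 362 for d/d, overlapping through f/f replicate 1. Leaving out f/f replicate 2 gave 0 higher and 0 lower, and leaving out the third replicate of either group gave 2 higher and 0 lower. With f/f replicate 1 left out 6 were higher and 3 lower, with d/d replicate 1 left out 4 and 1, and with d/d replicate 2 left out 4 and 0.

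**Figure D4:**
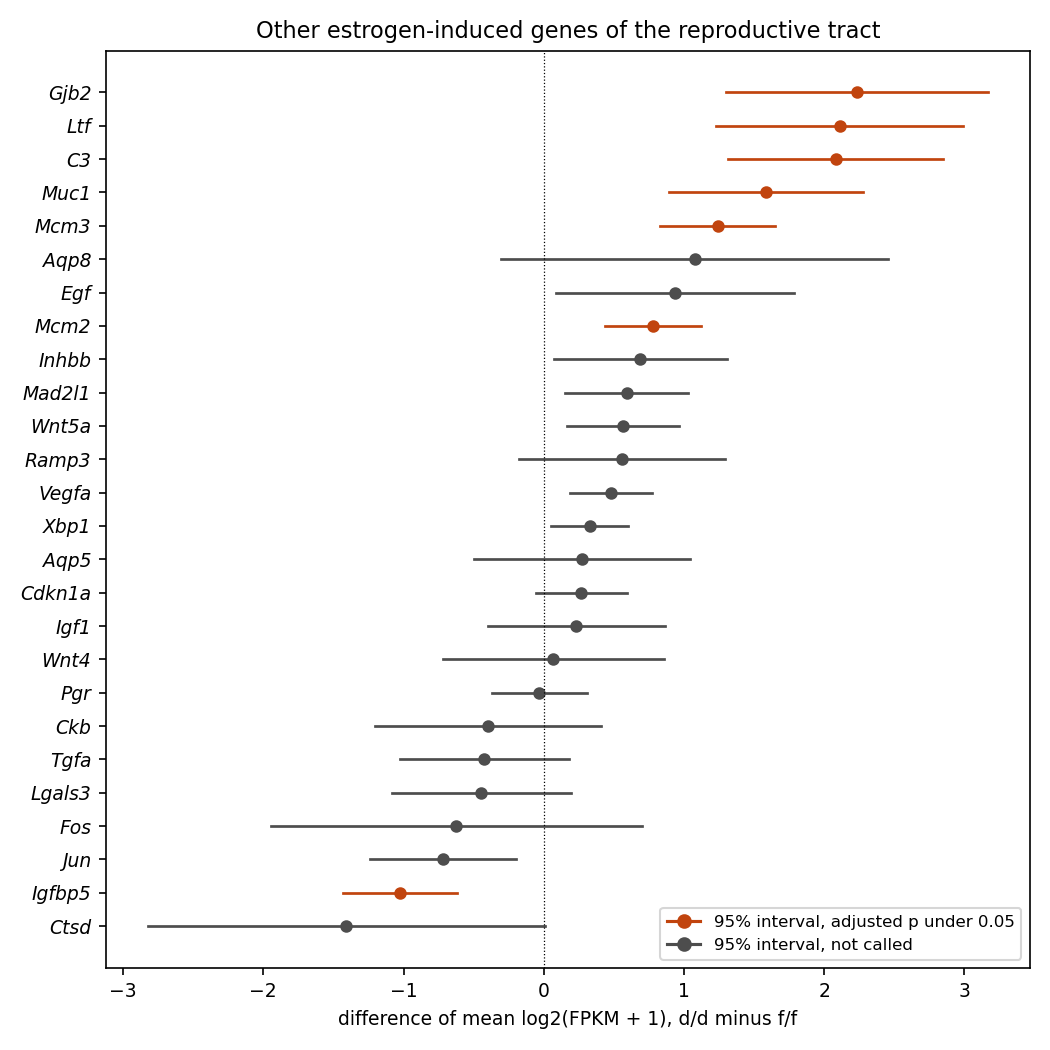
Log2 change, the d/d mean of log2(FPKM + 1) less the f/f mean (x axis), for the 26 tested genes of the list of other estrogen-induced genes (y axis), with bars for 95% intervals. The 6 genes called higher run from Mcm2 at 0.78 to Gjb2 at 2.23, Igfbp5 at -1.03 is the one called lower, and Pgr lies at -0.03.

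The machinery around the receptor gave few calls. Of 16 coregulators and chaperones of the estrogen receptor, all tested with limma, 0 were higher and 0 lower, with a median log2 change of -0.10, and 1 had an unadjusted p under 0.05. In the whole set tested, 6.04% were called higher and 4.97% lower. The most abundant were the chaperone gene Hsp90ab1, at 604 ± 53.7 FPKM for f/f and 671 ± 21.5 in d/d, and the arginine methyltransferase gene Prmt1, at 132 ± 16.6 and 139 ± 5.42 (SD, n = 3 each). Of 4 membrane and orphan receptors, 3 were tested and 0 were called. Esrra, an orphan receptor related to Esr1, had FPKM values of 11.3, 21.0 and 21.5 under f/f and of 18.9, 17.3 and 18.0 under d/d, and its relative Esrrg had 4.14, 2.72 and 2.83 for f/f against 1.14, 3.08 and 0.681 for d/d. The groups overlapped for both.

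Genes that make or break down estrogens were mostly low. Of 11 listed, 10 were in the tables under these symbols, 4 were tested, 1 was higher and 1 lower. Calls over all features tested were 6.04% higher and 4.97% lower. Cyp19a1, aromatase, was listed at 0 in 5 of 6 libraries and at 0.0280 FPKM in d/d replicate 3, and Sult1e1, the estrogen sulfotransferase, at 0 in all 6. Cyp1b1, which hydroxylates estradiol, had FPKM values of 101, 107 and 123 under f/f and of 70.6, 31.6 and 35.0 under d/d (log2 change -1.34, limma adjusted p = 0.0349). Hsd17b12, a reductase of steroids and fatty acids, was at 27.6, 33.2 and 32.0 for f/f and 42.2, 47.2 and 47.3 for d/d (log2 change 0.55, limma adjusted p = 0.0279). Neither gene overlapped between the groups. Without overlap, 18.1% of all features tested were higher in d/d and 17.4% lower. With 1 library left out, the Hsd17b12 call was kept for f/f replicate 1 and the Cyp1b1 call for d/d replicate 1, and both were otherwise lost. Hsd17b2, which inactivates estradiol and is under the filter, was at 0.610 FPKM, listed at 0 and at 0.250 in f/f and at 1.29, 1.304 and 1.29 in d/d. Those groups did not overlap, and the gene was picked after its values were seen.

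By level over all 6 libraries the order was Esr1 (146 ± 12.6 FPKM), Ccnd1 (68.8 ± 16.1), Greb1 (32.0 ± 6.82), Padi1 (30.3 ± 16.3), Myc (29.9 ± 4.67), Sprr2f (6.34 ± 7.44), Padi2 (4.28 ± 2.97), Lif (1.20 ± 0.581) and Esr2, between 0 and 0.143 (SD, n = 6). Over all 6 libraries, the means of Greb1, Padi1 and Myc lay within their SDs of each other, as did those of Sprr2f and Padi2, but these orders turned with genotype. In f/f every Greb1 value was above every Padi1 value and every Padi2 value above every Sprr2f value, while in d/d every Padi1 value was above every Greb1 value, and the mean of Sprr2f was above that of Padi2. Esr1 exceeded 96.8% of the features tested. The features most like Esr1 across the 6 libraries, by Pearson correlation of log2(FPKM + 1), were P2rx2 (0.989), Ncam1 (0.988) and Pld2 (0.985), and all 3 had their highest value in d/d replicate 1. Those most like Sprr2f were Psmd7 (0.998), Arl5a (0.997) and Naxd (0.996). With 15438 features and 6 libraries in 2 groups, values this high are a description of shared order among the libraries and carry no test.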

How the data were processed

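Total RNA of whole oviducts was sequenced in 6 libraries (TRIzol extraction and TruSeq kit, per the labels' protocols), grouped by the genotype in their titles. The deposited values, 1 per Ensembl gene and library, were read as FPKM. That unit is inferred from their form and from Cufflinks 2.2.1, named with HISAT2 2.2.1 and the builds mm9 and mm10 per the submitters' processing notes, which give no role for either build. Neither annotation, filters nor strand setting is stated there, so antisense and overlapping genes cannot be told apart.

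Rows sharing a symbol (114 symbols) were summed. Coordinates came from GENCODE M21 (GRCm38) by Ensembl identifier (55137 of 55483 rows matched) and promoters from RefSeq by symbol. Features with a mean of at least 1 FPKM were fitted with limma 3.58.1 in R 4.3.3 (lmFit, eBayes with trend; genotype only, two-sided) on log2(FPKM + 1), and the script was tested on simulated data. Alternatives were a pseudocount of 0.1, no filter, quantile and TMM normalization, rescaling without mitochondrial features, a replicate block, Hoxa10 as a covariate, and leaving out each library or both first replicates. An exact permutation test cannot go below p = 0.1 with 3 against 3. Since no label ties replicates to separate animals, the p-values reflect only how far these libraries spread, which may be technical. For depth, FPKM under 0.1 in single-transcript genes longer than 1500 nt was multiplied by transcript length less 265 nt. Between 92.6% and 96.6% of the 303 to 395 genes at the lowest step lay within 1% of it, and that step was taken as 1 fragment.

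The genes and lists were chosen with earlier results of these data known. Beside the 9 genes, those named are, per list, the 4 with the largest log2 change among those called, at most, or with none called the 2 most abundant, and the 3 most like Esr1 and Sprr2f. Other genes are named to complete a count, as markers, or after their values were seen. The last are Sprr2b, Sprr1a, Hsd17b2, Pgr, Jun, Fos, Ctsd, Ptprc, Lifr, Jak1, Jak2, Stat3, Socs3, Ccnd2, Cyp19a1, Sult1e1, Aqp8 and Egf.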

Additional observations from a re-analysis of the deposited data

How the results depend on the processing

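Alternatives were run for the 8 genes tested and for all features. All 14 kept the sign of each of the 8 genes except Myc, which was -0.031 with FPKM rescaled without mitochondrial features. That rescaling shifted the median of all features to -0.14, and 539 higher and 1124 lower features passed, so 32.4% of calls were higher against 54.9% of the 933 higher and 768 lower as deposited. Sprr2f ranged from 2.51 to 4.08 on the log2 scale and was called in 13 of 14 alternatives. Without each library in turn, the number of the 9 genes called higher ranged from 0 to 2, Sprr2f from 2.51 to 3.22, Padi2 from 0.82 to 1.49, Ccnd1 from 0.24 to 0.65 and Mettl3 from 0.66 to 0.81; all features called higher ranged from 98 to 926 and lower from 71 to 854. These fits have fewer samples. With both first replicates left out, 3 of the 9 genes were higher (Sprr2f, Padi2 at 1.59 and Ccnd1 at 0.58). With Hoxa10 as a covariate 1 was lower, Greb1 at -0.51. With no filter 599 features were higher and 508 lower, adjusted over more features. Prmt1 turned to -0.071 and Esrra to -0.075 in the rescaled fit, and Esrra to -0.257 with both first replicates left out; without each library in turn Prmt1 ranged from -0.009 to 0.166 and Esrra from -0.226 to 0.211. The cause of these changes was not tested. With a replicate block, 174 features were higher and 102 lower, Mettl3 missed the threshold (0.75, limma adjusted p = 0.0559) and Sprr2f kept its call (limma adjusted p = 0.0322). Same-numbered deviations from the group means correlated at -0.22, -0.06 and 0.003, and differently numbered ones between -0.276 and 0.282. With 3 libraries per group, these values cannot decide whether the numbers pair the libraries. Of 17 further genes named by rule and called, 0 kept the call without f/f replicate 2 and 3 with the block. At this depth Esr2 and the f/f level of Sprr2f rest on a few fragments.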
